A study of Mus musculus with 18 samples.

Results

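Rab proteins are small GTPases that mark the membranes of a cell and steer the vesicles that bud from, travel between and fuse with them. Each cycles between an inactive form held in the cytosol and an active form anchored to 1 kind of membrane, where it recruits tethers, motors and lipid kinases. Dendritic cells (DCs) depend on this traffic to take up antigen, to load and deliver MHC molecules, and to secrete cytokines. The Rab GTPase genes described here are the 59 genes of the count table, of 54232 in all, whose mouse symbol is Rab followed by a number and, at most, a letter and a further digit. Effectors and regulators, whose symbols differ, were left out of the family and are counted separately at the end. After the filter on low counts 55 members were tested, among 17074 genes. The other 4, Rab15, Rab3b, Rab3c and Rab40b, had between 2 and 46 reads over all 18 libraries and were not tested.

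RNA-seq had been run on DCs sorted from the small intestinal lamina propria (LP) and the intestinal lymph node (LN) of C57BL/6J mice lacking CD11a, the integrin chain encoded by Itgal. From each tissue 3 populations were taken by surface protein: CD11b+ CD103-, CD103+ CD11b-, and cells positive for both, called double-positive here. Each of the 6 groups had 3 libraries, 18 in all, and every animal carried the same deletion, so no library is a wild type control. Nothing in the sources used here says that the 3 replicates of a group came from separate mice, so p-values measure the spread between these samples, which may be technical.

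The libraries held 23574292 to 46901985 counted reads. Levels are given as CPM, a gene's reads relative to the size of its library, after scaling by edgeR's TMM factors, which ranged from 0.853 to 1.211. Itgal reads were present in every library, at 6.45 to 26.7 CPM, so the count of this gene does not show the deletion. The sort genes followed the labels within each tissue: Itgam, which encodes CD11b, was at 0.601 to 1.27 CPM in LP CD103+ libraries against 55.3 to 76.4 in the other LP libraries, and Itgae, which encodes CD103, was at 5.57 to 6.66 in LN CD11b+ libraries against 27.0 to 49.1 in the other LN libraries. LN double-positive libraries held Itgam at 4.85 to 5.76 CPM, below the 13.8 to 25.7 of LN CD11b+ libraries. LP CD11b+ libraries held Itgae at 92.1 to 292.5 CPM, below the 714 to 1440 of the other LP libraries but above every LN library. All LP libraries carried the Y-linked Ddx3y, at 50.04 to 74.4 CPM, and almost no Xist. All LN libraries carried Xist, at 15.4 to 89.1 CPM, and 2 of them, CD11b+ replicate 3 and double-positive replicate 3, also carried Ddx3y. Tissue and the sex of the animals therefore cannot be told apart. Among the Rab genes, Rab9, Rab9b, Rab33a and Rab39b lie on the X chromosome. The 8 T cell genes listed, Cd3e among them, summed to 7.79 to 37.4 CPM in LP libraries and to 322 to 689.6 in LN libraries, and their part in any tissue difference was not tested. In sorted bulk RNA, fewer cells of a type and less RNA per cell cannot be told apart.

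A gene is called here when edgeR's quasi-likelihood test gave a Benjamini-Hochberg adjusted p under 0.01 over all 17074 genes and the fold change was over 2. Whether the tissue effect differed between the 3 sorts was tested with a quasi-likelihood F test at the same adjusted p, with no limit on fold change.

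As a family, the Rab genes took the largest share of reads in the CD103+ sorts. Their summed level was 5079 ± 161 CPM in LP CD103+ DCs and 5512 ± 52.0 in LN CD103+ DCs (SD, n = 3). It was 3277 ± 96.5 in LP CD11b+, 3464 ± 95.9 in LP double-positive and 3243 ± 147 in LN CD11b+ DCs, with LN double-positive DCs between, at 4776 ± 140. With CPM taken on total counts without TMM, LP CD103+ DCs were highest, at 5132 ± 95.9, and LN CD103+ DCs next, at 4766 ± 110. Of the 55 tested members, 24 had their highest group mean in LN CD103+ DCs and 11 in LP CD103+ DCs. The LP sums rest much on Rab7b and Rab32, at 694 and 587 CPM in CD103+ against 20.4 and 171 in CD11b+ DCs. The median member log2 fold change of CD103+ over CD11b+ DCs was 0 in LP. In LN it was 0.51, and 0.08 without TMM.

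Among the 59 members, 41 reached a mean of 10 CPM in at least 1 group and 18 did not. In every group 10 members stayed at 100 CPM or more. Of the 55 tested, 18 were called in none of the 10 fold change comparisons. The same share over all genes is not given here. These include Rab7, the organiser of late endosomes and lysosomes, Rab5a, of early endosomes, Rab1a, Rab1b and Rab2a, of traffic between the endoplasmic reticulum (ER) and the Golgi, and Rab8a, Rab11b and Rab14, of recycling and delivery to the surface. They were not all unchanged. The F test called Rab8a, Rab11b, Rab14, Rab2a and Rab5a, with adjusted p from 4.5e-06 for Rab8a to 0.00957 for Rab5a. It did not call Rab7, Rab1a or Rab1b. Rab18, a lipid droplet and ER Rab, had the narrowest range among members of at least 10 CPM, from 83.1 ± 2.96 CPM in LP double-positive to 95.9 ± 10.4 in LN CD103+ DCs, a ratio of 1.15. At the other end, 9 members reached 10 CPM somewhere and had a highest group mean at least 8 times the lowest: Rab7b, Rab26, Rab37, Rab30, Rab39, Rab20, Rab9, Rab38 and Rab13.

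**Figure D1:**
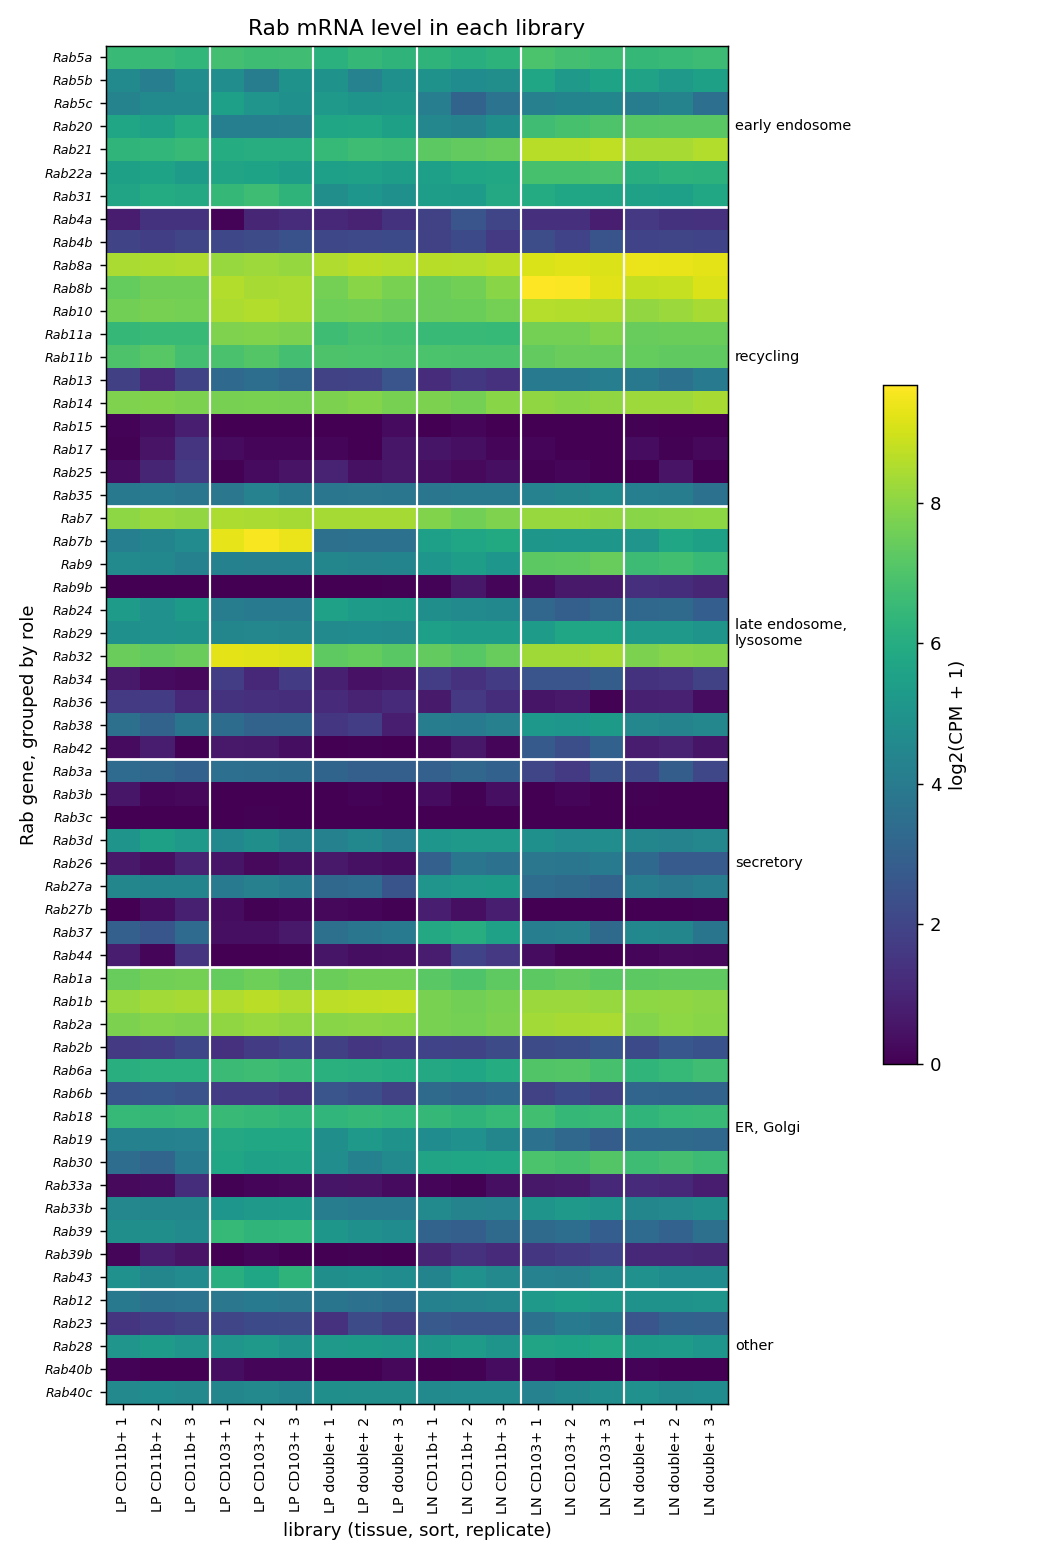
Level of each of the 59 Rab genes (rows, grouped by role) in each of the 18 libraries (columns, by tissue, sort and replicate), as log2(CPM + 1). Rab7b and Rab32 stand out in the 3 LP CD103+ libraries, and Rab9, Rab20 and Rab21 in the LN CD103+ and double-positive libraries.

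Compared per length of exon, which allows genes to be set against each other, Rab32 in LP CD103+ DCs had the highest group mean of the family, at 251 CPM per kb. Rab32 serves lysosomes and lysosome-related organelles. Rab1b followed in LP double-positive DCs, at 187 CPM per kb, then Rab2a in LN CD103+ DCs, at 156, Rab8b, which moves cargo to the plasma membrane, also in LN CD103+ DCs, at 154, and Rab7b in LP CD103+ DCs, at 150.0 CPM per kb. Averaged over the 6 groups the order began with Rab1b, at 138 CPM per kb, Rab2a, at 120.0, Rab32, at 115, and Rab7, at 109. Rab7b averaged 30.7 CPM per kb. Among early endosome Rabs the highest was Rab20, at 105 CPM per kb in LN double-positive DCs, among secretory Rabs Rab37, at 10.3 in LN CD11b+ DCs, and among those of other roles Rab12, at 12.3 in LN CD103+ DCs.

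**Figure D2:**
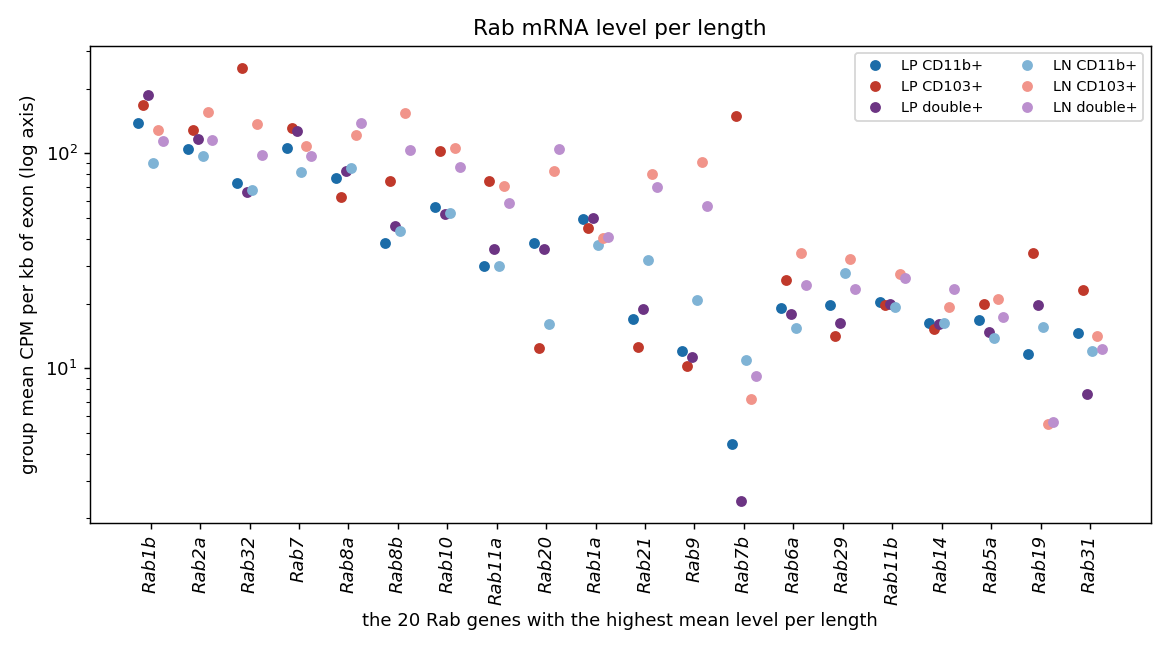
Group mean level per kb of exon (log axis) for the 20 Rab genes with the highest average over the groups, 1 point per group, coloured by tissue and sort. Rab1b, Rab2a and Rab7 keep their groups close together, while Rab7b spans 150.0 CPM per kb in LP CD103+ DCs to 2.41 in LP double-positive DCs.

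Rab7b, a relative of Rab7, acts between endosomes and the trans-Golgi network and had the highest ratio of highest to lowest group among members above 100 CPM, 62.3. The gene (ENSMUSG00000052688) lies on the plus strand of chromosome 1 at 131688695 to 131715439 of build GRCm38. In LP CD103+ DCs its level was 639.9, 773 and 669 CPM in the 3 libraries. In LP CD11b+ DCs it was 17.2, 19.6 and 24.5 CPM, and in LP double-positive DCs 10.95, 11.3 and 11.2. The LP CD103+ libraries lay above all other LP libraries, 33.9-fold over CD11b+ (log2 fold change 5.08 ± 0.178, SE, adjusted p = 2.71e-12) and 62.3-fold over double-positive DCs (adjusted p = 6.83e-13). In the lymph node the levels were 33.6, 33.1 and 33.4 CPM in CD103+, 42.6, 51.4 and 57.0 in CD11b+ and 31.9, 51.8 and 44.6 in double-positive DCs. There the order ran CD11b+, double-positive, CD103+, and the double-positive libraries overlapped both of the others. The step from CD11b+ to CD103+ was -0.59 ± 0.154 on the log2 scale (adjusted p = 0.0036), under the fold limit, and -1.02 and past it without TMM.

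Between tissues Rab7b moved in opposite directions. It was 20.8-fold lower in LN than in LP CD103+ DCs (log2 fold change -4.38 ± 0.172, adjusted p = 1.94e-12). It was 2.46-fold higher in LN than in LP CD11b+ DCs (1.30 ± 0.156, adjusted p = 6.25e-06) and 3.84-fold higher in LN than in LP double-positive DCs (1.94 ± 0.163, adjusted p = 2.60e-08). In each of these comparisons the tissues did not overlap. The F test of a difference between sorts gave an adjusted p of 2.57e-11, the smallest of the family. The 6 genes listed as markers of conventional type 1 DCs summed to 7730.0 to 8235 CPM in LP CD103+ libraries and to 257 to 317 in other LP libraries. In LN they summed to 1989 to 2057 CPM in CD103+ and to 579.6 to 1119 in other libraries. Most of the LN CD103+ sum was Irf8, at 1554 to 1656 CPM. Xcr1, Clec9a, Irf8 and Cadm1 were higher in LN CD103+ than in all other LN libraries. Tlr3 was lower there, at 6.58 to 10.3 against 16.5 to 24.6 CPM. Batf3 overlapped between LN CD103+ and LN double-positive libraries, at 142 to 182 and 172 to 192 CPM. The part of the listed genes in the Rab7b difference was not tested.

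Rab7b was 1 of 9 members called higher in LP CD103+ than in LP CD11b+ DCs, and 6 were called lower. The 9 higher make 16.4% of the 55 tested, where 5.07% of all genes were called higher, and the 6 lower make 10.9%, where 10.6% of all genes were. The higher members were Rab7b, Rab32, Rab39, Rab43, Rab19, Rab30, Rab11a, Rab13 and, at a mean of 1.92 CPM, Rab34. The lower ones were Rab37, Rab24, Rab20, Rab6b and, at under 1 CPM in LP, Rab44 and Rab39b. Without LP CD103+ replicate 2 Rab44 lost its call (adjusted p = 0.0117), and Rab39b did without any of 5 libraries, with adjusted p up to 0.034 without LP CD11b+ replicate 2. LP double-positive DCs were lower than LP CD103+ DCs for 13 members, 23.6% against a background of 5.52%, and higher for 3, 5.45% against 8.1%. Both comparisons use the same LP CD103+ libraries. LP double-positive and LP CD11b+ DCs were called apart in 3 members, all lower in double-positive DCs: Rab38, Rab27a and Rab39b. That is 5.45% against 3.67% of all genes, and 0 were called higher, against 1.14%. The count of 3 rose to 5 without LP CD11b+ replicate 1, where Rab3d and Rab31 were added, and to 5 without LP double-positive replicate 2. Rab39b, at under 1 CPM in LP, lost its call without LP CD11b+ replicate 2 or 3 or any LP double-positive library.

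Rab32 was at 614, 587 and 560.2 CPM in LP CD103+ libraries, against 173, 162 and 177 in LP CD11b+ and 154, 164 and 145 in LP double-positive libraries. LN CD103+ libraries gave 314, 316 and 330.0, LN double-positive 217, 242 and 229, and LN CD11b+ 160.3, 141 and 171. CD103+ DCs were the highest sort in both tissues, with no overlap. The LP difference over CD11b+ DCs was 3.44-fold (adjusted p = 4.90e-11). The LN difference was 2.03-fold (adjusted p = 1.27e-08), just past the fold limit. It fell short of it without LN CD11b+ replicate 1, LN CD11b+ replicate 2 or LN CD103+ replicate 3, at log2 fold changes of 0.99, 0.91 and 0.98, and without TMM, at 0.59. Between tissues the CD103+ log2 fold change was -0.88 ± 0.0780 (adjusted p = 4.70e-08), within the fold limit, and -1.10 and past it without TMM.

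Rab39, which is placed at the Golgi and at phagosomes, was the 1 member called lower in LN in all 3 sorts, or 1.82% of the 55, where 2.4% of all genes were. LP CD103+ libraries held 89.1, 79.8 and 83.0 CPM. LP CD11b+ libraries held 27.4, 27.3 and 23.9, and LP double-positive libraries 34.1, 28.2 and 25.3. All 9 LN libraries lay at 6.36 to 10.7 CPM, below every LP library. The fold was 9.80 in CD103+ DCs (adjusted p = 1.86e-10), 3.36 in CD11b+ DCs (adjusted p = 1.21e-06) and 3.19 in double-positive DCs (adjusted p = 5.15e-07), and it differed between sorts (F test, adjusted p = 6.72e-05).

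Rab43, a Golgi Rab known for its part in cross-presentation by type 1 DCs, was at 68.5, 51.5 and 77.9 CPM in LP CD103+ libraries and at 17.71 to 28.8 in all 15 others. It was 2.69-fold higher in LP CD103+ than in LP CD11b+ DCs (adjusted p = 3.59e-06) and 3.31-fold lower in LN than in LP CD103+ DCs (adjusted p = 1.62e-07). In CD11b+ and double-positive DCs its tissues overlapped, with log2 fold changes of -0.06 ± 0.167 and -0.03 ± 0.167. Of its annotated exon bases 75.4% are shared with a second gene, Gm45140, so its counts are uncertain.

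Rab19, of the Golgi, was at 55.9, 52.7 and 53.2 CPM in LP CD103+, 27.4, 35.3 and 30.3 in LP double-positive and 18.1, 18.01 and 18.6 in LP CD11b+ libraries. LN CD11b+ libraries gave 24.8, 28.6 and 20.5, LN CD103+ libraries 11.4, 8.31 and 6.31, and LN double-positive libraries 8.87, 9.22 and 8.36. The CD103+ sort was thus the highest in LP, while CD11b+ DCs were the highest in LN, with no overlap. It was 6.22-fold lower in LN than LP in CD103+ DCs (adjusted p = 1.20e-09) and 3.52-fold lower in double-positive DCs (adjusted p = 1.13e-07), while in CD11b+ DCs the log2 fold change was 0.43 ± 0.165 (adjusted p = 0.0481). The F test gave 1e-07.

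**Figure D3:**
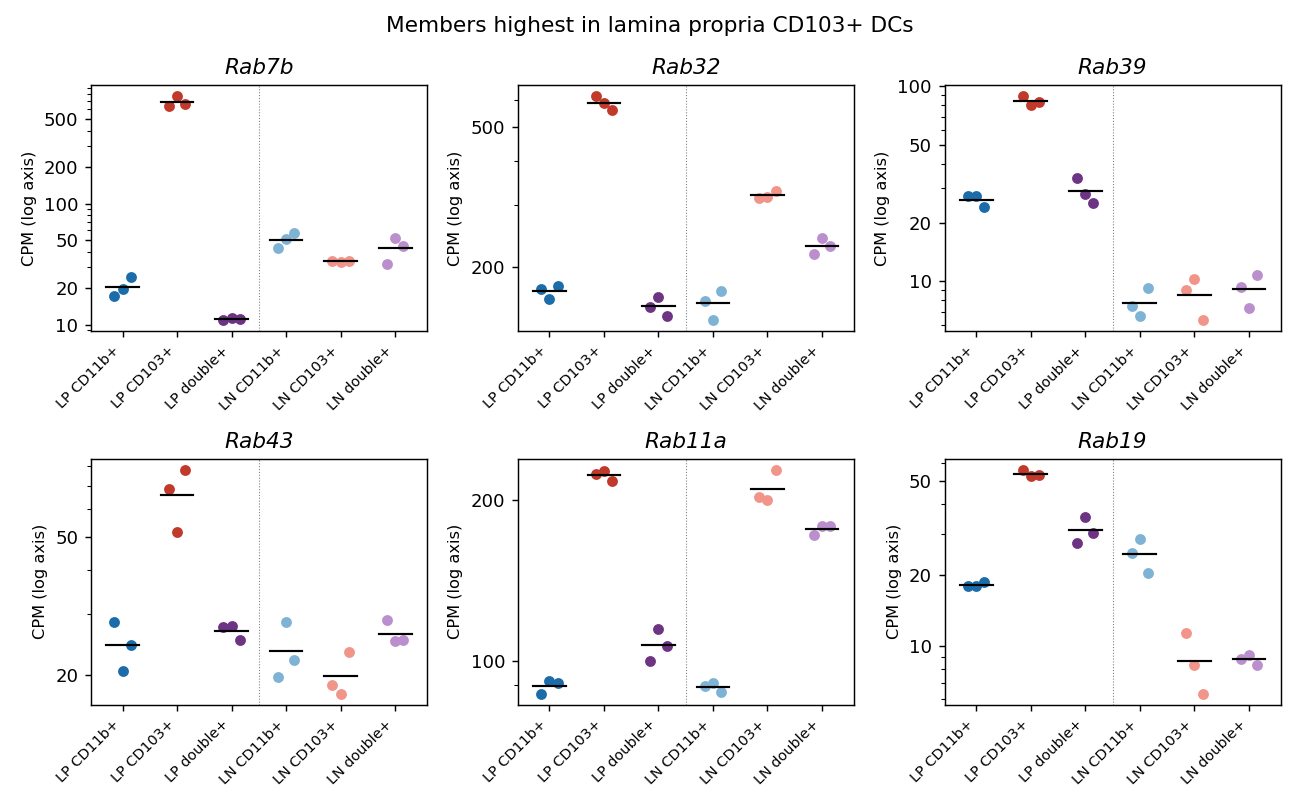
CPM (log axis) of 6 Rab genes whose highest group was LP CD103+ DCs, 1 point per library and a bar at the mean of each group of 3. Rab7b and Rab39 are lower in all 3 LN sorts than in LP CD103+ DCs, while Rab11a keeps near its level in LN CD103+ DCs, at 210.0 CPM against 223.

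Rab11a, the Rab of recycling endosomes, separated sorts rather than tissues in CD103+ and CD11b+ DCs. LP CD103+ libraries gave 224, 227 and 217 CPM and LN CD103+ libraries 202, 199.9 and 228, which overlap. LP CD11b+ libraries gave 86.8, 91.6 and 90.9 and LN CD11b+ libraries 89.6, 90.8 and 87.2, which overlap too. The CD103+ sort was 2.48-fold above CD11b+ in LP (adjusted p = 2.19e-10) and 2.35-fold in LN (adjusted p = 2.10e-10), the latter at a log2 fold change of 0.80 without TMM, under the fold limit. Double-positive DCs were near CD11b+ DCs in LP, at 107 ± 7.48 CPM, and nearer CD103+ DCs in LN, at 176 ± 3.54. Rab10, which works in exocytosis and recycling, was at 361 ± 11.7 and 374 ± 10.5 CPM in CD103+ DCs of LP and LN against 199 ± 6.69 and 186 ± 11.9 in CD11b+ DCs. Of these 2 differences only the LN one was called, at 2.01-fold (adjusted p = 1.50e-08). It was under the fold limit without TMM, at a log2 fold change of 0.58, without the filter on low counts, at 0.97, and in 9 of the fits that left out 1 library, at 0.94 to 0.99. The LP one was 1.81-fold.

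In CD11b+ DCs 7 of the 55 members were higher in LN than in LP, 12.7% against 10.3% of all genes, and 2 were lower, 3.64% against 4.93%. In CD103+ DCs 17 were higher, 30.9% against 19.8%, and 7 lower, 12.7% against 15.1%. In double-positive DCs 16 were higher, 29.1% against 18.6%, and 4 lower, 7.27% against 13.6%. The median log2 fold change over the tested members was -0.01 in the CD11b+ sort, 0.41 in the CD103+ sort and 0.53 in double-positive DCs, beside 0.03, 0.04 and 0.07 over all genes tested. For the tissue effect averaged over the sorts 13 members were higher, 23.6% where 19.7% of all genes were, and 5 lower, 9.09% where 13% were. The F test called 31 of the 55 members, 56.4%, where 31.5% of all genes were called. Without TMM, the median of all genes moved by 0.14 for CD11b+, by -0.21 for CD103+ and by -0.17 for double-positive DCs on the log2 scale. The split of CD103+ member calls then went from 17 higher and 7 lower to 13 and 10.

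Called higher in LN in all 3 sorts were Rab30, Rab26, Rab34, Rab23 and Rab9b, 5 of 55 or 9.09%, where 7.21% of all genes were. Rab34, Rab23 and Rab9b were low, with no group mean above 5.34, 12.8 and 1.34 CPM. Rab9b had 0 reads in all 6 LP CD11b+ and CD103+ libraries, and its call in CD11b+ DCs was lost without any 1 LP CD11b+ library, any 1 LN double-positive library, LN CD11b+ replicate 2 or LN CD103+ replicate 2. The call of Rab23 in CD11b+ DCs was lost without LP CD11b+ replicate 1, at a log2 fold change of 1.03, and that in double-positive DCs without LP double-positive replicate 1, at 0.99. Rab34 lost its call in CD103+ DCs without LP CD103+ replicate 2, at 1.17, or LN CD103+ replicate 3, at 1.33, and in double-positive DCs without LP double-positive replicate 2, at 1.61.

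Rab30, a Golgi Rab, was at 49.8, 51.6 and 53.6 CPM in LN CD11b+ against 10.1, 7.87 and 15.5 in LP CD11b+ libraries, and at 119.7, 115 and 134 in LN CD103+ against 51.3, 45.4 and 47.1 in LP CD103+ libraries. Double-positive DCs gave 100.1, 111 and 97.3 in LN and 25.5, 18.03 and 23.0 in LP. Every sort was higher in LN with no overlap, 4.63-fold in CD11b+ (adjusted p = 9.54e-08), 2.56-fold in CD103+ (adjusted p = 2.70e-06) and 4.64-fold in double-positive DCs (adjusted p = 1.40e-08). The difference between sorts was at the edge of the threshold (F test, adjusted p = 0.00943) and was lost in most fits that left out 1 library, with adjusted p up to 0.0277 without LP CD103+ replicate 1.

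Rab26, known from secretory granules, was close to absent in LP and present in LN. LP libraries ranged from 0.172 to 0.948 CPM. LN CD11b+ libraries gave 6.79, 13.0 and 11.3, LN CD103+ libraries 13.4, 12.9 and 14.6, and LN double-positive libraries 8.87, 5.90 and 5.84. The log2 fold changes were 4.05 ± 0.414, 5.39 ± 0.449 and 4.11 ± 0.429 for CD11b+, CD103+ and double-positive DCs, with adjusted p of 1.16e-06, 1.92e-08 and 3.65e-07, and the F test called no difference between sorts (adjusted p = 0.107).

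**Figure D4:**
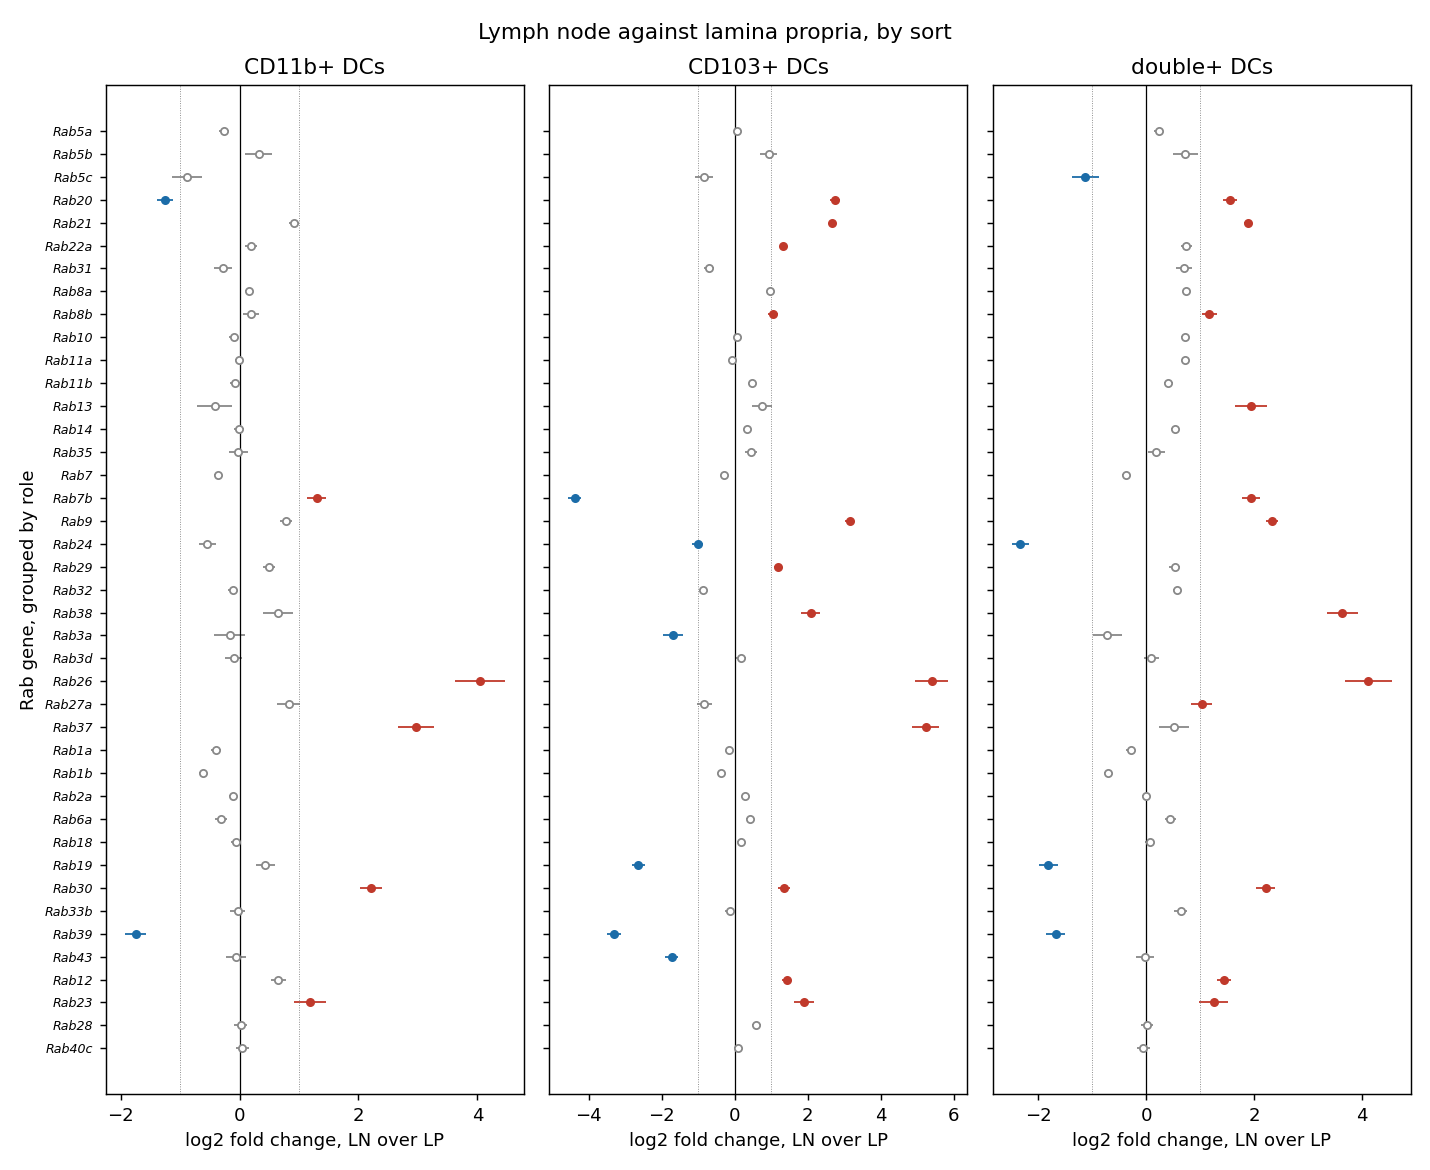
Log2 fold change of LN over LP (± SE) in CD11b+, CD103+ and double-positive DCs for the 41 Rab genes with a group mean of at least 10 CPM, ordered by role. Filled red points were called higher in LN and filled blue points lower, open grey points were not called, and dotted lines mark a fold of 2. Rab7b is lower in CD103+ DCs and higher in the other sorts, while Rab20 is lower in CD11b+ DCs and higher in the others.

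Of the early endosome Rabs (7 tested), 3 were higher in LN CD103+ DCs, namely Rab20, Rab21 and Rab22a, and 2 in LN double-positive DCs, Rab20 and Rab21, while Rab5c was lower there. The 3 are 42.9% of the list, where 19.8% of all genes were higher, the 2 are 28.6%, where 18.6% were, and Rab5c is 14.3%, where 13.6% were lower. Rab20, found on early endosomes and maturing phagosomes, was at 103, 116 and 128 CPM in LN CD103+ against 17.2, 17.1 and 17.6 in LP CD103+ libraries. In double-positive DCs it was at 144, 148 and 148 in LN against 51.9, 54.2 and 43.8 in LP. In CD11b+ DCs the order turned, with 21.2, 19.1 and 27.0 in LN and 52.4, 45.9 and 62.1 in LP. The 3 comparisons had no overlap between tissues: 6.67-fold higher in CD103+ (adjusted p = 3.05e-11), 2.93-fold higher in double-positive (adjusted p = 2.33e-08) and 2.38-fold lower in CD11b+ DCs (adjusted p = 1.30e-06). The F test gave 5.74e-10. Of its exon bases 25.6% are shared with E230013L22Rik.

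Rab21, which controls integrin endocytosis, was at 393, 391.7 and 429.6 CPM in LN CD103+ against 62.9, 64.6 and 63.6 in LP CD103+ libraries, a 6.36-fold difference (adjusted p = 2.25e-13). Double-positive DCs gave 339, 340.2 and 374 in LN against 88.4, 101 and 96.3 in LP, 3.69-fold (adjusted p = 1.12e-11). CD11b+ DCs gave 149.9, 161 and 170.1 against 78.5, 82.8 and 94.3, also without overlap but at a log2 fold change of 0.91 ± 0.0800 (adjusted p = 2.21e-07), under the fold limit. Without TMM this value was 1.05 and past it. The sorts differed (F test, adjusted p = 1.75e-08). Rab22a, an early and recycling endosome Rab, was 2.51-fold higher in LN CD103+ DCs (adjusted p = 5.23e-09). Rab5c, at 35.3, 30.9 and 33.4 CPM in LP double-positive and 15.8, 19.0 and 10.6 in LN double-positive libraries, was 2.19-fold lower (adjusted p = 8.91e-04), a call lost without LN double-positive replicate 3, at a log2 fold change of -0.94. Rab5a and Rab5b were not called in any fold change comparison.

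Among the late endosome and lysosome Rabs (11 tested), 6 were higher and 3 lower in LN CD103+ DCs, and 6 higher and 1 lower in LN double-positive DCs. In CD103+ DCs these are 54.5% higher and 27.3% lower, where 19.8% and 15.1% of all genes were, and in double-positive DCs 54.5% and 9.09%, where 18.6% and 13.6% were. Rab9, of transport from late endosomes to the trans-Golgi network, was at 149, 156 and 172 CPM in LN CD103+ libraries against 17.9 ± 0.177 (SD, n = 3) in LP, 8.87-fold (adjusted p = 1.05e-12). LN double-positive libraries gave 98.9, 107 and 91.8 against 21.0, 18.9 and 19.4, 5.03-fold (adjusted p = 3.35e-11). In CD11b+ DCs it was at 33.3, 42.2 and 33.1 in LN and 23.3, 21.9 and 18.1 in LP, not overlapping, with a log2 fold change of 0.78 ± 0.109 (adjusted p = 3.04e-05) that stayed under the fold limit. LP means of the 3 sorts were close together, from 17.9 to 21.1 CPM, and the LN means spread from 36.2 to 159 (F test, adjusted p = 1.72e-08). Rab9 and the other X-linked members, Rab9b, Rab33a and Rab39b, were all called higher in LN CD103+ DCs, where 19.8% of all genes were. In LN double-positive DCs Rab9, Rab9b and Rab39b were called higher and Rab33a was not, where 18.6% of all genes were. In LN CD11b+ DCs only Rab9b was, where 10.3% of all genes were. The share among X-linked genes is not given here. Tissue and sex cannot be told apart in these calls.

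The 10 genes listed as DC maturation genes, Ccr7 and Fscn1 among them, summed to 27289 to 28531 CPM in LN CD103+, 22602 to 25120.0 in LN double-positive and 4199 to 6659 in LN CD11b+ libraries, against 1019 to 2743 in LP libraries. Ccr7, Fscn1, Cd40, Ccl22, Relb, Socs2 and Cd83 were higher in LN in every sort, without overlap. Cd86 was lower in LN CD103+ than in LP CD103+ libraries, at 140 to 154 against 512 to 646 CPM. It was also lower in LN double-positive DCs and higher in LN CD11b+ DCs. Cd80 was lower in LN double-positive libraries, at 16.25 to 18.2 against 31.8 to 41.7 CPM. Il4i1 was at most 0.422 CPM. The part of the listed genes in the differences of Rab9, Rab20 and Rab21 was not tested.

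Rab38, the relative of Rab32 on lysosome-related organelles, had its highest level in LN. It was at 34.5, 32.6 and 38.0 CPM in LN CD103+ against 9.59, 7.55 and 7.75 in LP CD103+ libraries, 4.23-fold (adjusted p = 2.74e-06). In double-positive DCs it was at 21.5, 19.2 and 21.4 in LN against 1.90, 2.34 and 0.750 in LP, 12.4-fold (adjusted p = 1.42e-08). In LP it was 6.19-fold lower in double-positive than in CD11b+ DCs (adjusted p = 1.13e-05). Rab29, a further relative, was 2.27-fold higher in LN CD103+ DCs (adjusted p = 3.50e-08), and at a log2 fold change of 0.96, under the fold limit, without TMM. Rab7 had group means of 214 to 343 CPM.

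Rab24, an atypical Rab linked to autophagy, was lower in LN. LP double-positive libraries gave 44.9, 38.2 and 37.7 CPM and LN double-positive libraries 8.28, 9.15 and 6.51, 5.03-fold lower (adjusted p = 1.74e-09). In CD103+ DCs the levels were 16.0, 15.0 and 15.2 in LP against 8.09, 6.66 and 8.15 in LN, 2.02-fold lower (adjusted p = 2.17e-05). That call lay at the fold limit and was lost at -0.98 without LP CD103+ replicate 1, at -0.94 without LN CD103+ replicate 2 and at -0.98 with DESeq2 size factors. Of the exon bases of Rab24 62.4% are shared with Prelid1. Rab42 was called higher in LN CD103+ and double-positive DCs and Rab36 lower in LN CD103+ DCs, at group means of at most 5.55 and 1.85 CPM. Rab36 lost its call in 9 of the fits that left out 1 library, with adjusted p up to 0.0238 without LN CD103+ replicate 3, and with only the libraries of the compared groups (0.0183).

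The sequence before the start of 4 of these genes is shown, because 2 of them, Rab32 and Rab39, had their highest level in LP CD103+ DCs and the other 2, Rab9 and Rab20, were higher in LN CD103+ and double-positive DCs than in their LP counterparts. The stretches are the 250 bases before the RefSeq start on build GRCm38.p6, read in the direction of the gene, and for Rab32 and Rab20 end where an annotated exon begins. All 4 genes lie on the minus strand. Capitals mark matches, on either strand, to 5 short motifs: CACGTG of the E-box, TGANTCA of AP-1, GAGGAAG of PU.1, GAAANNGAA of interferon regulatory factors and GGGNNTTCC of the kappa B type.
Rab32 (chr10:10558266-10558457): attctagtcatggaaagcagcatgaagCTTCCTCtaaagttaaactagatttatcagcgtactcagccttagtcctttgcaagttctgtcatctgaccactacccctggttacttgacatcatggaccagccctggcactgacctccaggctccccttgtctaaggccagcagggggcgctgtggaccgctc
Rab39 (chr9:53706233-53706482): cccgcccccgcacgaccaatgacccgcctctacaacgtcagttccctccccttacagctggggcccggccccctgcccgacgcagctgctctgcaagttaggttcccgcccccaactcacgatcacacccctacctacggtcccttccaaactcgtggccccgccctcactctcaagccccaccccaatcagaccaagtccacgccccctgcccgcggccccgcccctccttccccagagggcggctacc
Rab9 (chrX:166479868-166480117): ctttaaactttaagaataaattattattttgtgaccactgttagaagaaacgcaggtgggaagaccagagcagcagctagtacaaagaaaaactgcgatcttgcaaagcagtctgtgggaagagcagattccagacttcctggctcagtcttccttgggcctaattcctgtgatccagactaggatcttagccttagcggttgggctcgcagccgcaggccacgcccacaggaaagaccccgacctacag
Rab20 (chr8:11478711-11478890): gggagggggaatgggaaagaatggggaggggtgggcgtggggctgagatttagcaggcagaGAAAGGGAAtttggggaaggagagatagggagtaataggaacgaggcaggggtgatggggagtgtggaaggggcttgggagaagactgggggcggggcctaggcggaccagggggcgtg

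The Rab32 window holds the PU.1 letters at bases 223 to 217 before the start and again at 43 to 37, the second inside an annotated exon and not shown. The Rab20 window holds the interferon regulatory factor letters at bases 189 to 181 and, inside the part not shown, an E-box at 46 to 41. None of the 5 motifs was found in the windows of Rab39 and Rab9, which says only that these letters are not there. Among all 32851 promoter windows of that length 6.02% hold the E-box, 6.75% the AP-1, 10.6% the PU.1, 7.13% the interferon regulatory factor and 4.98% the kappa B letters. Among the 60 windows of the 48 Rab genes with an entry, 5, 2, 5, 3 and 4 windows hold them.

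Of the secretory Rabs (7 tested), 5 were lower in LN CD103+ than in LN CD11b+ DCs, 71.4% against 15.6% of all genes, and 0 were higher, against 10.2%. The lower ones were Rab37, Rab27a, Rab3a and, at under 2 CPM, Rab44 and Rab27b. Rab27b lost its call without any 1 LN CD103+ library, with adjusted p of 0.0114 to 0.0117, and Rab44 without LN CD103+ replicate 2, at 0.0115. LN double-positive DCs were also lower than LN CD11b+ DCs for 4 of the 7, 57.1% against 9.82%, and higher for 0, against 6.92%. These were Rab37, Rab27a, Rab44 and Rab27b. Both comparisons share the LN CD11b+ libraries. Between LN double-positive and LN CD103+ DCs 0 of the 7 were called. Rab37, of secretory granules and cytokine release, was at 56.0, 64.3 and 44.9 CPM in LN CD11b+, 22.0, 20.9 and 12.6 in LN double-positive and 16.6, 17.6 and 9.07 in LN CD103+ libraries. In LP it was at 6.71, 5.05 and 9.32 in CD11b+, 10.9, 12.9 and 15.2 in double-positive and 0.318, 0.301 and 0.571 in CD103+ libraries. It was higher in LN in CD11b+ DCs by a log2 fold change of 2.97 ± 0.297 (adjusted p = 9.06e-07) and in CD103+ DCs by 5.23 ± 0.373 (adjusted p = 2.82e-09). Double-positive libraries of the tissues overlapped (0.51 ± 0.278, adjusted p = 0.125), and the sorts differed (F test, adjusted p = 1.63e-06).

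Rab27a, which docks secretory lysosomes, was at 32.3, 36.8 and 37.2 CPM in LN CD11b+ against 10.1, 9.03 and 7.45 in LN CD103+ libraries, 4.00-fold (adjusted p = 3.36e-07). LP double-positive DCs had the lowest level, at 8.42, 9.56 and 4.64 CPM. Its call higher in LN double-positive DCs (log2 fold change 1.02 ± 0.200, adjusted p = 3.07e-04) was lost in 6 of the fits that left out 1 library, with 0.77 without LP double-positive replicate 3. Rab3a, of regulated exocytosis, was 3.22-fold lower in LN than in LP CD103+ DCs (adjusted p = 4.47e-05). Rab3d, of granule exocytosis, was not called in any fold change comparison.

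Some marker lists of other cells were also higher in LN CD11b+ libraries. These held the 5 listed B cell genes at a sum of 107 to 153 CPM, against 34.3 to 55.8 in the other LN libraries, the 4 plasma cell genes at 1483 to 1640.0 against 345 to 677, the 6 mast cell and granulocyte genes at 246 to 324 against 28.8 to 129.5, and the 7 macrophage genes at 453 to 747 against 38.0 to 205. Most of the mast cell and granulocyte sum was Kit, at 228 to 259 CPM in LN CD11b+ libraries and at 104 to 159 in LP libraries. Within each LN sort Rab37 and the T cell gene Cd3e were both lowest in replicate 3. Between sorts they differed, with Cd3e at 23.8 to 42.9 CPM in LN CD11b+ and 39.0 to 70.6 in LN CD103+ libraries. The part of these lists and of the T cell genes in the levels of Rab37, Rab27a, Rab27b and Rab44 was not tested. Rab17 and Rab25, known from polarised epithelium, had highest group means of 0.748 and 1.12 CPM in LP CD11b+ DCs. The 8 epithelial genes summed to 219 to 535 CPM there, to 574 to 839 in LP double-positive and to 56.7 to 104 in LP CD103+ libraries. Most of the LP double-positive sum was Epcam, at 412 to 524 CPM, and Cdh1, at 140 to 264. Krt8, Krt18 and Krt19 reached their highest levels in LP CD11b+ libraries, where Krt8 was at 7.36, 25.5 and 66.8 CPM. In the same libraries Rab17 was at 0.0359, 0.439 and 1.77 CPM and Rab25 at 0.251, 0.988 and 2.12. The part of the epithelial genes was likewise not tested.

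**Figure D5:**
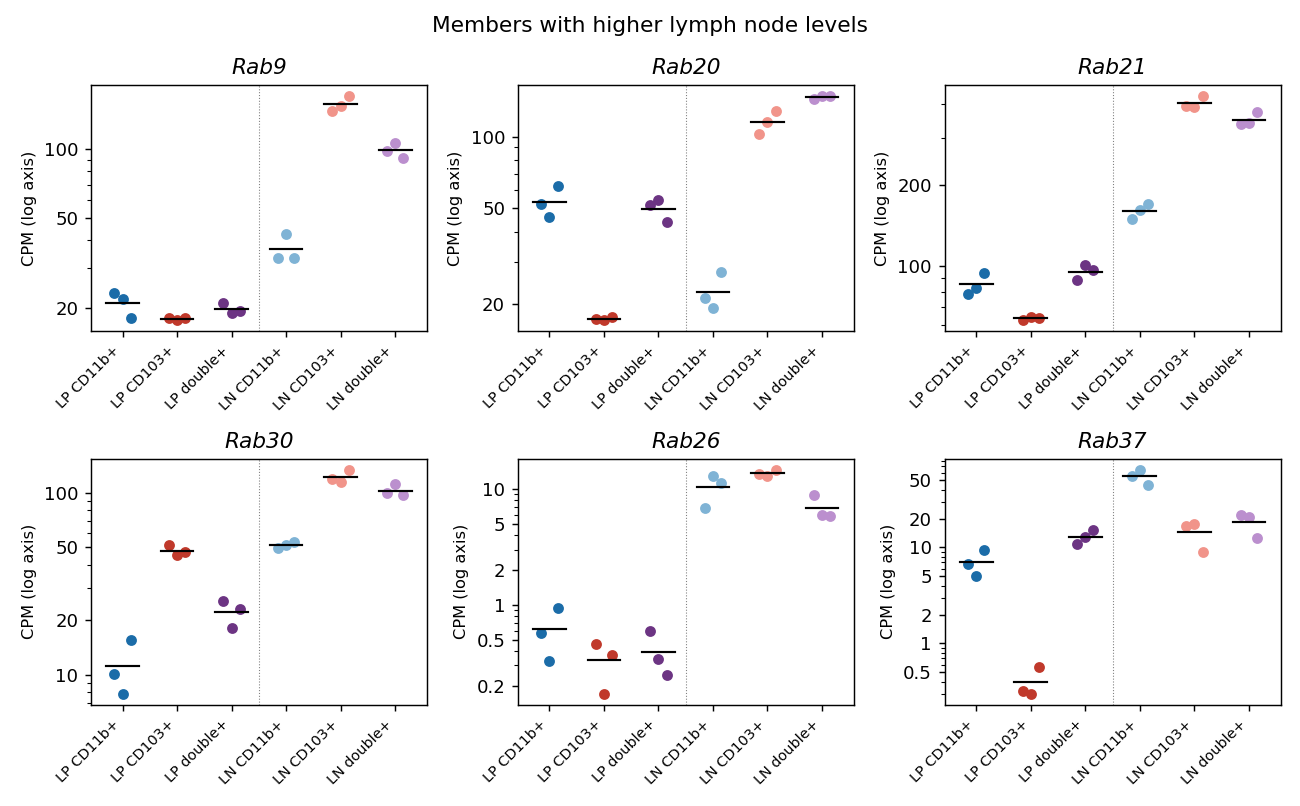
CPM (log axis) of 6 Rab genes called higher in at least 2 LN sorts than in their LP counterparts, 1 point per library and a bar at the mean of each group of 3. Rab9 and Rab21 are highest in LN CD103+ DCs, Rab20 in LN double-positive DCs and Rab37 in LN CD11b+ DCs.

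Of the recycling and plasma membrane Rabs (12 tested), Rab8b was called higher in LN CD103+ DCs, 8.33% where 19.8% of all genes were. Rab8b and Rab13 were called higher in LN double-positive DCs, 16.7% where 18.6% of all genes were. In CD11b+ DCs 0 were called. Rab25, at no more than 1.12 CPM, was called lower for the tissue effect averaged over the sorts, 8.33% where 13% of all genes were. Rab8b was at 815, 780.4 and 597 CPM in LN CD103+, 441, 454 and 574 in LN double-positive and 179, 195 and 246 in LN CD11b+ libraries. In LP CD103+ libraries it was at 372, 341 and 349, so the tissues did not overlap, at 2.07-fold (adjusted p = 4.99e-06). The fold limit was missed without LN CD103+ replicate 1, at a log2 fold change of 0.94, without LN CD103+ replicate 2, LP CD103+ replicate 2 or any 1 LN CD11b+ library, at 0.98 to 1.00, and without TMM, at 0.82. In double-positive DCs it was 2.24-fold higher in LN (adjusted p = 1.76e-06), and at 0.99 without TMM. Rab8a, its close relative, had a log2 fold change of 0.96 ± 0.0630 in CD103+ DCs (adjusted p = 1.01e-09), within the fold limit.

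Rab13, which returns proteins to cell junctions and the surface, separated the CD11b+ sort in LN. LN CD103+ libraries gave 15.4, 14.7 and 16.5 CPM and LN double-positive libraries 14.1, 11.4 and 14.3, against 1.37, 1.98 and 1.60 in LN CD11b+ libraries. The CD103+ level was 9.39-fold above the CD11b+ level (adjusted p = 1.50e-07), and the double-positive level 8.03-fold (adjusted p = 6.54e-07). These comparisons share the LN CD11b+ libraries. In LP the CD103+ libraries were above the others, at 8.91, 10.3 and 8.40 CPM. Double-positive DCs were at 2.68, 2.92 and 4.78 there, so that Rab13 was 3.83-fold higher in LN in that sort (adjusted p = 2.12e-05). Rab4a, Rab4b, Rab11b, Rab14, Rab17 and Rab35 were not called in any fold change comparison.

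Within the lymph node, CD103+ and CD11b+ DCs were called apart in 23 members. Higher in CD103+ were 15, 27.3% against 10.2% of all genes, and lower were 8, 14.5% against 15.6%. Without TMM the median of all genes moved by -0.43 in this comparison, and 5 members were called higher and 10 lower, so the balance of directions depends on the scaling here. Rab9, Rab20, Rab8b, Rab13 and Rab42 were the 5 still higher. Double-positive and CD11b+ DCs were called apart in 11 members, with 5 higher, 9.09% against 6.92%, and 6 lower, 10.9% against 9.82%. Without TMM the median of all genes moved by -0.37 and the members split 3 higher to 8 lower. Double-positive and CD103+ DCs were called apart in 3 members: Rab6b was higher, 1.82% against 4.69% of all genes, and Rab42 and Rab23 were lower, 3.64% against 1.84%. That count fell to 1, Rab6b, without TMM and without any 1 LN CD103+ or LN double-positive library, LN CD11b+ replicate 3, or LP CD103+ replicate 1 or 2.

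Of the ER and Golgi Rabs (14 tested), 3 were higher in LN CD103+ DCs and 3 lower, 21.4% each, where 19.8% and 15.1% of all genes were. Besides Rab30, Rab39, Rab19 and Rab43 above, Rab39b and Rab33a were called higher at group means of no more than 2.32 and 1.05 CPM. The call of Rab33a was lost without TMM (adjusted p = 0.0119) and in 11 of the fits that left out 1 library, with adjusted p up to 0.0356 without LP CD103+ replicate 1. Rab1b, the highest of the set per length, had log2 fold changes of -0.62 ± 0.0680, -0.38 ± 0.0670 and -0.71 ± 0.0680 between LN and LP in CD11b+, CD103+ and double-positive DCs, with adjusted p of 2.28e-06, 1.17e-04 and 1.31e-07, all within the fold limit. Its libraries did not overlap between tissues in any sort. Rab6a, of traffic within and out of the Golgi, was 2.24-fold higher in LN CD103+ than in LN CD11b+ DCs (adjusted p = 5.27e-08), a call lost without TMM. Among the Rabs of other roles (4 tested), Rab12, which sends the transferrin receptor to lysosomes, was at 35.8, 40.5 and 35.4 CPM in LN CD103+ against 13.1, 15.5 and 13.1 in LP CD103+ libraries, 2.67-fold (adjusted p = 3.09e-08). It was 2.72-fold higher in LN double-positive DCs (adjusted p = 3.38e-08). Rab28 and Rab40c were not called in any fold change comparison.

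Of the regulators and effectors of the Rabs, 120 genes are in the table and 116 were tested. In CD103+ DCs 32 were higher in LN, 27.6% where 19.8% of all genes were, and 17 lower, 14.7% where 15.1% were. In double-positive DCs 26 were higher, 22.4% against 18.6%, and 18 lower, 15.5% against 13.6%. In CD11b+ DCs 11 were higher, 9.48% against 10.3%, and 6 lower, 5.17% against 4.93%. Their median log2 fold changes were 0.19, 0.27 and 0.17 in that order. Among the core genes that prenylate and extract Rabs (8 tested), Gdi2, a GDP dissociation inhibitor, was lower in LN CD103+ and double-positive DCs, 2.46-fold (adjusted p = 3.90e-10) and 2.26-fold (adjusted p = 1.80e-09). Chml, a Rab escort protein, was lower in the same sorts at adjusted p of 2.85e-04 and 0.00245.

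Of 31 exchange factors, which activate Rabs, 9 were higher and 7 lower in LN CD103+ DCs, 29% and 22.6% against 19.8% and 15.1% of all genes. Ric1, part of the exchange factor of Rab6, was 10.2-fold higher there, at 87.8 CPM against 8.70 (adjusted p = 1.53e-10), and Sbf2 was 6.61-fold higher in LN double-positive DCs (adjusted p = 4.83e-08). Dennd2c and Rab3il1, both exchange factors, were 22.3-fold and 20.5-fold lower in LN CD103+ DCs (adjusted p = 4.08e-09 and 3.46e-08). Of 34 GTPase activating proteins, which switch Rabs off, 8 were higher and 3 lower in LN CD103+ DCs, 23.5% and 8.82% against the same 19.8% and 15.1%. Tbc1d4, which acts on Rab8a, Rab10 and Rab14, was at 1476 CPM in LN against 35.9 in LP double-positive DCs, 41.1-fold (adjusted p = 1.12e-12). It was 25.8-fold higher in LN CD11b+ DCs (adjusted p = 5.92e-11) and 6.86-fold in LN CD103+ DCs (adjusted p = 2.17e-10). Rabgap1l was higher in LN in CD11b+, CD103+ and double-positive DCs, by 4.63-, 7.03- and 9.40-fold. Sgsm3 was lower in all 3 sorts, by 9.04-fold in CD103+ DCs (adjusted p = 1.62e-11), and Tbc1d2b by 4.28-fold in CD103+ and 4.47-fold in double-positive DCs.

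Of 43 effectors tested, 15 were higher and 5 lower in LN CD103+ DCs, 34.9% and 11.6% against 19.8% and 15.1% of all genes. In LN double-positive DCs 11 were higher and 7 lower, 25.6% and 16.3% against 18.6% and 13.6%. Myo5b, the myosin that carries Rab11 and Rab8 vesicles, was 47.8-fold higher in LN double-positive DCs, at 25.2 against 0.525 CPM (adjusted p = 2.25e-06), and Mical3, an effector of Rab8, was 11.8-fold higher in LN CD103+ DCs (adjusted p = 4.30e-09). Micall2, which works with Rab13, was lower in all 3 sorts, 6.15-fold in CD103+ DCs (adjusted p = 1.25e-07). Rilpl1 was lower in LN double-positive DCs, at 2.28 against 22.0 CPM (9.59-fold, adjusted p = 3.02e-08), and higher in LN CD103+ DCs, at 2.36 against 0.193 CPM (11.4-fold, adjusted p = 7.10e-08).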

How the data were processed

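The 18 libraries were mapped to 6 groups by the tissue and surface markers in their labels. The authors deposited 1 table of raw read counts per Ensembl gene. The study's methods describe SMART-seq v4 libraries, STAR alignment to GRCm38 with unstranded gene counts of uniquely mapped reads and Ensembl annotation, but do not list these libraries, and the submitters' processing notes name FastQC 0.11.7 and STAR 2.6. Reads of overlapping genes cannot be assigned by such counting, which touches members that share exon bases with another gene. Symbols matched 54079 of the 54232 genes. The members, lists and naming rule were chosen with earlier results of these data known.

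Counts were filtered with filterByExpr, scaled by TMM and fitted with edgeR 4.0.16 (R 4.3.3) in 1 quasi-likelihood model of 6 group means. The comparisons were LN against LP in each sort and on average, each pair of sorts within a tissue, and an F test of sort-dependent tissue effects, all two-sided. Genes were called at a Benjamini-Hochberg adjusted p under 0.01 and, except in the F test, a fold over 2. The code was tested on simulated data. Full values are given for Rab7b, for the 4 largest rises and 4 largest falls per tissue comparison among called members of at least 10 CPM, for members whose highest mean was at least 8 times the lowest, for the 5 smallest F test p-values, and for the highest member per length in each role. Members with values outside that rule, Rab11a and Rab27a among them, were chosen after their values were seen. Regulators were named by the largest changes in each list, and 1 that the rule names is not reported here. Alternatives were DESeq2 1.42.0 and its size factors, total counts, other filters and thresholds, a replicate block and leaving out libraries. Promoter sequences are from RefSeq (GRCm38.p6), where 48 members have an entry.

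Replicate letters recur in all groups. Same-letter libraries deviated together in LP CD103+ with LP CD11b+ (r of 0.152 to 0.208 per pair across genes) and with LP double-positive DCs (0.125 to 0.189), and so were taken as paired there. They did not meet that rule in any other pair of groups compared.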

Additional observations from a re-analysis of the deposited data

Results flagged for a closer look

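For 15 of the members with full values above, the difference between LN and LP was itself different between the 3 sorts by the F test at an adjusted p under 0.01. These members were chosen in part by their F test p and the size of their tissue differences. Their count therefore says nothing about the family. Among all 55 tested members the F test called 31, 56.4%, where 31.5% of all genes were called. For endosome and phagosome Rabs the adjusted p was 5.74e-10 for Rab20 and 1.75e-08 for Rab21. For late endosome and lysosome Rabs it was 2.57e-11 for Rab7b, 1.72e-08 for Rab9, 1.18e-07 for Rab32, 2.74e-05 for Rab38 and 1e-05 for Rab24. For Golgi Rabs it was 1e-07 for Rab19, 2.05e-05 for Rab43, 6.72e-05 for Rab39 and 0.00943 for Rab30. For the rest it was 1.63e-06 for Rab37, 0.000702 for Rab13, 0.00105 for Rab8b and 0.00156 for Rab12. Rab7b and Rab20 were called in opposite directions in different sorts. Without TMM the F test no longer called Rab8b (adjusted p = 0.0165) or Rab12 (0.0512), and Rab12 was also lost without LN CD11b+ replicate 1 (0.0116). Rab30 was lost with DESeq2 size factors (0.0118), without both LN libraries that carry Ddx3y (0.0217) and in 14 of the fits that left out 1 library, at 0.01 to 0.0277.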

How the results depend on the processing

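Of 306 counts of called members under an alternative, 281 stayed within 1.5 times the value given. The share of all genes called under each alternative is not given in this section. Without the fold limit, more of all genes can be called too. The counts below therefore show only how far the member calls moved, and say nothing about the family. With no limit on fold change, LN against LP gave 20 members (CD11b+), 38 (CD103+), 36 (double-positive) and 39 (mean effect), LP gave 27 (CD103+ against CD11b+) and 9 (double-positive against CD11b+), and LN gave 26 (double-positive against CD11b+) and 15 (double-positive against CD103+). Without TMM the counts were 5 for LP double-positive against CD11b+, 15 for LN CD103+ against CD11b+ and 1 for LN double-positive against CD103+. The LP double-positive against CD11b+ count was 1 with only the 6 libraries compared and 2 to 5 when 1 library was left out. The LN double-positive against CD103+ count was 1 without both LN libraries that carry Ddx3y, 5 with DESeq2 as the test and 1 to 3 when 1 library was left out. Of members named by rule, the 34 called differences between LN and LP were followed. Most of these members were named for large differences in these same data, which makes lost calls and changes of sign unlikely from the start. Calls of other members, such as Rab9b, Rab23 and Rab34 above, are not among the 34. For the 34 differences, 952 values under an alternative were computed. Of these, 0 changed sign and 16 lost a call, those of Rab24 and Rab8b in CD103+ and of Rab5c and Rab8b in double-positive DCs, all near the fold limit. The cause of these changes was not tested.

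With a replicate block within each tissue, the paired LP comparisons gave 15 members (CD103+ against CD11b+) and 16 (double-positive against CD103+), with no call changed. In the comparisons not taken as paired the block gave 4 for LP double-positive against CD11b+, where pairing is not settled. It gave 23, 10 and 4 for LN CD103+ against CD11b+, double-positive against CD11b+ and double-positive against CD103+. Over both tissues it gave 8, 24 and 20 for CD11b+, CD103+ and double-positive DCs, 17 for the mean effect and 31 for the F test. Members of low level, such as Rab9b, Rab39b and Rab27b, rest on few reads, which limits the precision of their differences.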
